A study of Homo sapiens with 40 samples.

Results

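The 10 genes GRB7, STARD3, MIEN1, PGAP3, TCAP, PNMT, ORMDL3, PSMD3, MED1 and CDK12 lie beside ERBB2, the gene of HER2, on the long arm of chromosome 17. They were chosen by name, as genes of the ERBB2 amplicon, and all 10 were found among the 44584 gene names of the count table. RNA was sequenced from BT474, a HER2+ breast ductal carcinoma line that responds to trastuzumab, and from BT474R, a resistant line. BT474R is 1 clone, raised from BT474 under trastuzumab, so its differences from BT474 are those of that clone. Cells of both lines were first starved of serum, and the T0 libraries were made at the end of that starvation. The other libraries came from cells given EGF, HRG or water as the vehicle, in fresh starvation medium, for 1 h, 12 h or 24 h. There were 2 libraries in each of the 20 groups, 40 in all, and treated groups are named by ligand and line (EGF-BT474R).

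In HER2+ tumours, a stretch of chromosome 17 around ERBB2 is present in many copies, and neighbouring genes are copied with it. How far the extra copies reach differs between tumours, and a neighbour inside the stretch can be expressed more highly without taking part in HER2 signalling. The neighbours have unrelated tasks: GRB7 is an adaptor that binds phosphorylated HER2, MED1 and CDK12 act in transcription by RNA polymerase II, STARD3 moves cholesterol, PGAP3 trims GPI anchors, ORMDL3 restrains sphingolipid synthesis, PSMD3 is a proteasome subunit, and PNMT and TCAP are best known from the adrenal medulla and from muscle. MIEN1 is a small membrane-anchored protein linked to cell migration. EGF binds EGFR, HRG binds HER3 and HER4, and both receptors can signal in pairs with HER2.

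On GRCh38, with the gene spans of GENCODE 44, MED1 (chr17:39404285-39451272, minus strand) and CDK12 (chr17:39461486-39567559, plus) were the neighbours on the centromeric side. STARD3 (chr17:39637090-39664201, plus), TCAP (chr17:39665349-39666554, plus), PNMT (chr17:39667981-39670475, plus) and PGAP3 (chr17:39671122-39696797, minus) followed in that order, up to ERBB2 itself (chr17:39687914-39730426, plus). Beyond ERBB2 came MIEN1 (chr17:39728496-39730532, minus), GRB7 (chr17:39737927-39747291, plus), ORMDL3 (chr17:39921041-39927601, minus) and PSMD3 (chr17:39980807-39997959, plus). MIEN1 ends inside ERBB2 on the other strand, and 149 bases of the canonical exons of MIEN1 and ERBB2 are the same positions. The spans of PGAP3 and ERBB2 also overlap, with 0 bases of canonical exon in common. Whether reads were counted by strand was not given in the sources used here, so values of MIEN1 can hold reads of ERBB2.

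By their RefSeq start sites, PGAP3 and ERBB2 start close together and run apart, and PGAP3 fell under both ligands. Their start regions are shown with that of ORMDL3, which also fell under both ligands. MIEN1, called lower with ligand only in HRG-BT474 at 12 h, is not shown. The windows run from 250 bases before to 50 bases after a start site, and the sequences are those of RefSeq for GRCh38.p14. Windows were found for 7 of the 10 neighbours, and PNMT, TCAP and GRB7 were without one. In the PGAP3 window (chr17:39688008-39688307, minus strand) and the ERBB2 window (chr17:39687844-39688143, plus strand), capitals mark the 136 bases that both windows hold, each written on its own strand. ORMDL3 has 3 windows in the table, and the window shown (chr17:39927552-39927851, minus strand) is the one at the GENCODE start of the gene, with a match to GGGCGG in capitals.
PGAP3: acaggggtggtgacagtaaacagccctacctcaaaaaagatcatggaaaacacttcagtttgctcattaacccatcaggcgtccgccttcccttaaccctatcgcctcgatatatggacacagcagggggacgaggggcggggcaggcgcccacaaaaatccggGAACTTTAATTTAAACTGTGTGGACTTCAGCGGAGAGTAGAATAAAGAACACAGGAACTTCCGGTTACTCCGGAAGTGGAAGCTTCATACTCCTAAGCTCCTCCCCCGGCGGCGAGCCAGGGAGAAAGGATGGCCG
ERBB2: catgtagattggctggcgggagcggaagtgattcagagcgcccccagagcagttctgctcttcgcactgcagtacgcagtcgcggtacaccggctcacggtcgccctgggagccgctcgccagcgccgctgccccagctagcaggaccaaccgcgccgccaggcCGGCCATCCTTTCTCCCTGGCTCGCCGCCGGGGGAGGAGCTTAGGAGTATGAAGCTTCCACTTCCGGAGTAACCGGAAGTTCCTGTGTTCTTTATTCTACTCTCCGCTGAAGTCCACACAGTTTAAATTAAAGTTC
ORMDL3: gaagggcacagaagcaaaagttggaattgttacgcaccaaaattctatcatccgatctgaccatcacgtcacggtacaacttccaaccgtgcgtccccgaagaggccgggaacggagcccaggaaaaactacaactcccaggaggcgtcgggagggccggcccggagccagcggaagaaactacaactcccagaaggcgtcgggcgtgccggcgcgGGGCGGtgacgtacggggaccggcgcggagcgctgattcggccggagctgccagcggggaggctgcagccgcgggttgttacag
The RefSeq start sites of PGAP3 and ERBB2 are 37 bases apart. The annotations differ here, since by the GENCODE spans PGAP3 starts 8.88 kb downstream of the start of ERBB2, within its span. The shared bases hold 2 matches to CCGGAA, the core letters of an ETS motif, counted on both strands, and 17.2% of the 35116 windows in the table hold at least 1 such match. The PGAP3 window also holds 1 match to GGGCGG, an SP motif found in 45.0% of windows, and the ORMDL3 windows hold 1 here and 2 and 1 in the others. The ERBB2 window holds 1 match to TGANTCA, an AP-1 motif found in 7.71% of windows, outside the shared bases. The 3 ORMDL3 windows hold 0 matches to CCGGAA. Of the windows not shown, that of STARD3 holds 1 match to CCGGAA and 2 to GGGCGG, and that of MIEN1 1 of each. Those of MED1, CDK12 and PSMD3 hold 0 of either, so the matches did not go with the neighbours that fell. A match is a run of letters and was not tested as a binding site.

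At T0, the neighbours were expressed at very different levels, and most were near the top of all genes. To compare genes with each other, levels are given as CPM, the counts per unit of library total after TMM scaling, per kilobase of the gene's canonical transcript, as the mean of 2 libraries. In BT474, PSMD3 was the highest neighbour with 924.5 CPM per kb (SD 33.6), higher than 99.9% of the 18430 genes compared. ORMDL3 with 308 (SD 7.81), STARD3 with 266 (SD 1.32) and MED1 with 264 (SD 6.20) CPM per kb came next, and STARD3 and MED1 differed by less than their spread. GRB7 had 243 (SD 7.83), MIEN1 219.8 (SD 3.19), PGAP3 205 (SD 0.486) and CDK12 113 (SD 0.276) CPM per kb. Each of these 8 genes was above more than 97.7% of genes. PNMT and TCAP stood apart at the low end of the neighbours, with 37.8 (SD 1.85) and 10.9 (SD 0.962) CPM per kb. ERBB2 was at 1765 CPM per kb (SD 30.5), above each neighbour.

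In BT474R at T0, the order of the neighbours was PSMD3, ORMDL3, STARD3, GRB7, MIEN1, MED1, PNMT, PGAP3, CDK12 and TCAP. PSMD3 was at 981 CPM per kb (SD 6.96) and ORMDL3 at 502 (SD 6.05). STARD3 had 383 (SD 2.49), GRB7 342 (SD 25.2) and MIEN1 313 (SD 1.73) CPM per kb, with MED1 next at 223 (SD 0.704), and GRB7 lay within 2 of its SDs of both neighbours in the order. PNMT had moved up, to 187 CPM per kb (SD 2.20), past PGAP3 with 142 (SD 3.78) and CDK12 with 129.9 (SD 1.54), while TCAP was lowest with 17.2 (SD 0.527). The median over the 10 neighbours was 231 CPM per kb in BT474 and 268 in BT474R, beside 3.72 and 3.79 over all genes compared.

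High levels did not run through the whole stretch. The 8 other genes listed between MED1 and PSMD3, ERBB2 among them, had a median of 0.446 CPM per kb in BT474 and 12.2 in BT474R at T0. The 7 genes listed on the centromeric side had medians of 36.9 and 45.3, and the 14 on the telomeric side 23.3 and 20.8. PPP1R1B, which encodes the phosphatase inhibitor DARPP-32 and lies between CDK12 and STARD3, was at 0.742 CPM per kb (SD 0.0555) in BT474 and at 349.7 (SD 13.3) in BT474R. Its level in BT474R was in the range of the neighbours on either side of it.

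**Figure D1:**
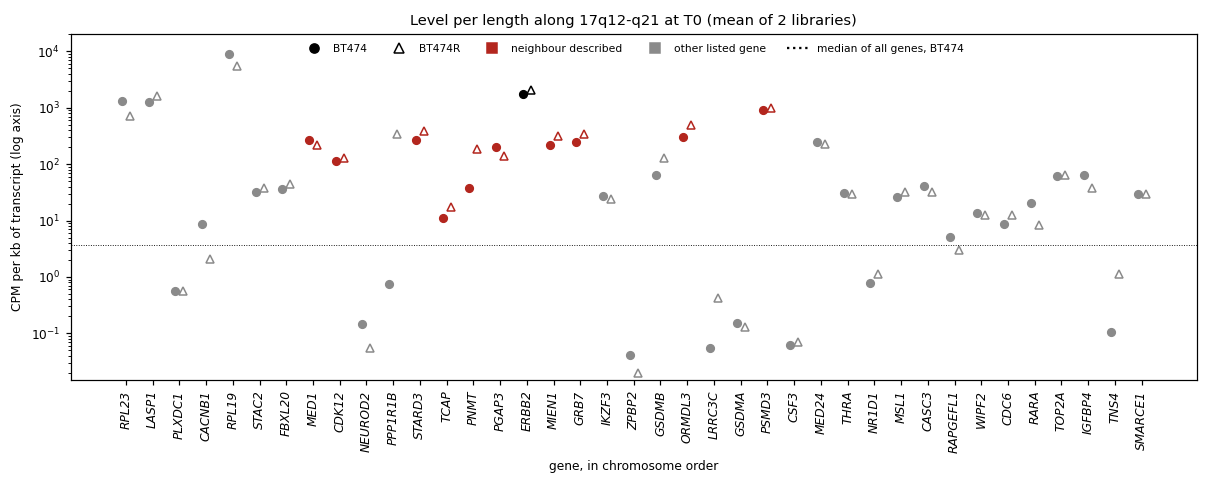
Level of 39 genes in chromosome order at T0, as CPM per kilobase of canonical transcript on a log axis, with filled circles for BT474 and open triangles for BT474R (means of 2 libraries). The dotted line is the median of all genes in BT474, 3.72 CPM per kb. ZPBP2 in BT474R, at 0, is drawn at the lower edge. PPP1R1B is near 1 in BT474 and at 349.7 in BT474R.

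The epithelial markers EPCAM, KRT8, KRT18, KRT19, CDH1 and GATA3 were each above 3 counts in at least 1 library of both lines, 6 of 6, with summed levels, here without TMM scaling, of 5345 to 7854 CPM in BT474 and 4383 to 6343 in BT474R. Of 3 leukocyte markers 1 was above 3 counts in each line, with sums of 1.21 to 3.58 and 1.03 to 4.76 CPM, and both of 2 endothelial markers were, with sums between 8.51 and 24.5 CPM over both lines. Of 3 fibroblast markers 1 was above 3 counts in BT474 and 2 in BT474R, with sums of 74.7 to 111.6 and 162.3 to 282.5 CPM. Their part in the results was not tested. Library totals ran from 16794594 to 33387936 counts. Each neighbour had more than 3 counts, the detection limit set for counting error only, in every library. The lowest value was 132 counts of TCAP, and the lowest for another neighbour was 627 counts of PNMT. Tests are edgeR's quasi-likelihood tests with Benjamini-Hochberg adjustment over all genes, and a gene was called a DEG at an adjusted p below 0.05. The labels do not say that the 2 libraries of a group came from separate cultures, so p-values measure the spread between these libraries, which may be technical.

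To ask whether the neighbours differed between the resistant and the sensitive line at baseline, BT474R was compared with BT474 at T0. Of the 10 neighbours, 9 were DEGs, 7 higher and 2 lower in BT474R, where 46.9% of the 24641 genes tested were DEGs. Most neighbours were among the highest genes, for which a small change is more readily called. The shares over all genes, here and below, were not matched for level. The libraries of the lines did not overlap for any of the 10, nor for 71.2% of all genes. The neighbours did not share a direction: PNMT, ORMDL3, TCAP, STARD3, MIEN1, GRB7 and CDK12 were higher, and PGAP3 and MED1 were lower. Their median log2 fold change was 0.50.

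PNMT, which converts noradrenaline to adrenaline, differed most of the neighbours. It had 35.0 and 37.5 CPM in BT474 and 180.8 and 178 CPM in BT474R at T0. That is a 4.96-fold difference, with a log2 fold change of 2.31 (SE 0.07, adjusted p = 1.21e-25 by edgeR). ORMDL3 had 661 and 638 CPM in BT474 and 1068 and 1049.9 CPM in BT474R, a log2 fold change of 0.70 (SE 0.04, adjusted p = 1.17e-18 by edgeR). TCAP, a titin-binding protein of muscle, had 11.1 and 9.83 CPM in BT474 and 16.9 and 16.1 CPM in BT474R. In log2 this was 0.65 (SE 0.15), on far fewer counts than the others.

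STARD3, MIEN1 and GRB7, which lie around ERBB2, were higher in BT474R by much the same amount. STARD3 had 739 and 734 CPM in BT474 and 1056 and 1066 CPM in BT474R, MIEN1 had 310.3 and 304 against 436 and 439 CPM, and GRB7 had 530.0 and 555 against 803 and 724 CPM. The log2 fold changes were 0.53 (SE 0.04), 0.51 (SE 0.05) and 0.49 (SE 0.08). ERBB2 itself had 8142 and 7945 CPM in BT474 and 9463 and 9168 CPM in BT474R, a log2 fold change of 0.21 (SE 0.04, adjusted p = 1.27e-05 by edgeR). Each of the 3 estimates was above the approximate 95% interval of ERBB2, 0.14 to 0.29, but a difference between the genes was not tested.

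PGAP3, whose RefSeq start region ERBB2 shares, went the other way. It had 551 and 553 CPM in BT474 and 374 and 388 CPM in BT474R, and was 1.45-fold lower in BT474R (log2 fold change -0.53, SE 0.05, adjusted p = 9.36e-11 by edgeR). MED1, a Mediator subunit, had 2180.0 and 2109 CPM in BT474 and 1811 and 1819 CPM in BT474R (log2 fold change -0.24, SE 0.04). CDK12, a kinase of RNA polymerase II and the next gene to MED1, was higher in BT474R, with 936 and 933 against 1086 and 1068 CPM (log2 fold change 0.20, SE 0.04). PSMD3 had 2036 and 1934 CPM in BT474 and 2096 and 2117 CPM in BT474R, and its log2 fold change of 0.09 had an interval of 0.01 to 0.16 (adjusted p = 0.0532 by edgeR). These are bulk libraries, in which fewer cells of a type and less RNA per cell cannot be told apart, and the copy number of the stretch was not analysed here.

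The 2 lines were also compared under vehicle at each time. At 1 h, 10 of 10 neighbours were DEGs (50.2% of all genes), at 12 h 9 (49% of all genes) and at 24 h 8 (49.3% of all genes), and MED1 and PGAP3 were the 2 that were lower in BT474R at each time. Libraries of the lines did not overlap for 10 neighbours at 1 h (74.1% of all genes), for 9 at 12 h (74% of all genes) and for 9 at 24 h (70.4% of all genes). The difference in PNMT was 2.42 (SE 0.07), 2.21 (SE 0.07) and 1.95 (SE 0.07) in log2, and that in ORMDL3 0.72, 0.65 and 0.68 (SE 0.04 each). ERBB2 was higher in BT474R at 1 h and 12 h, with log2 fold changes of 0.34 and 0.27 (SE 0.04 each). At 24 h its log2 fold change was 0.04 (interval -0.04 to 0.11), while STARD3 (0.38, SE 0.04), MIEN1 (0.53, SE 0.05) and GRB7 (0.30, SE 0.08) were still higher. TCAP did not pass at 12 h, where its log2 fold change was 0.07 (interval -0.21 to 0.35), and it was a DEG at 1 h and 24 h with 0.56 (SE 0.16) and 0.78 (SE 0.14). The call of TCAP at 1 h was lost without replicate 2 of vehicle-BT474 or replicate 1 of vehicle-BT474R at 1 h, between 0.42 and 0.65 in log2 over all libraries left out in turn, and that of CDK12 without the same libraries, between 0.11 and 0.16.

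Of the other 29 genes listed along the stretch, those between the neighbours and on either side also went both ways at T0. In this comparison 46.9% of all genes were DEGs, counting both directions. Between MED1 and PSMD3, 4 of 8 were higher and 1 lower in BT474R. On the centromeric side 2 of 7 were higher and 3 lower, and on the telomeric side 3 of 14 were higher and 6 lower. The largest rise of a DEG was that of PPP1R1B, with 1.28 and 1.42 CPM in BT474 and 652 and 618 CPM in BT474R, a log2 fold change of 8.88 (SE 0.21, adjusted p = 8.13e-29 by edgeR). The largest fall was that of CACNB1, a calcium channel subunit, with 31.2 and 33.6 CPM in BT474 and 8.70 and 7.02 CPM in BT474R (log2 fold change -2.06, SE 0.15). PPP1R1B stayed at 588.6 to 1312 CPM in the libraries of BT474R and at 0.673 to 3.12 CPM in those of BT474.

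**Figure D2:**
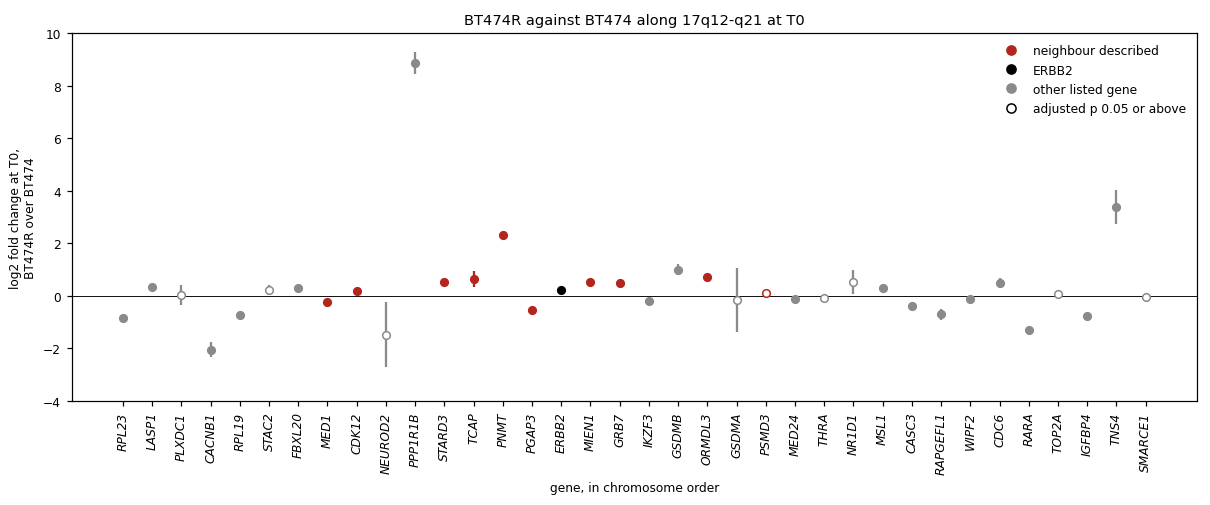
Log2 fold change of BT474R over BT474 at T0 for 36 genes in chromosome order, with approximate 95% intervals from the SE and open symbols where the adjusted p was 0.05 or above. ZPBP2, LRRC3C and CSF3, at 3 counts or fewer in both libraries of a group, are left out. PPP1R1B stands at 8.88, PNMT at 2.31 and ERBB2 at 0.21.

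To ask whether the neighbours follow the medium change and time alone, vehicle was compared with T0 in each line. At most 2 of 10 were DEGs at a time. CDK12 was called at each time in BT474. In BT474, 2 of 10 were DEGs at 1 h (6.61% of all genes), 1 at 12 h (6.41% of all genes) and 1 at 24 h (11.4% of all genes). The 3 times share their T0 libraries. In BT474R, 2 were DEGs at 1 h (2.24% of all genes), 0 at 12 h (1.13% of all genes) and 2 at 24 h (13.7% of all genes). At 12 h in BT474R, 2 neighbours had an unadjusted p below 0.05 in edgeR, and DESeq2 called 0. At 24 h DESeq2 also called STARD3 in BT474 (log2 fold change 0.08, adjusted p = 0.0481) and PSMD3 in BT474R (-0.12, adjusted p = 0.0166).

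TCAP fell at 1 h in both lines. In BT474 it went from 11.1 and 9.83 CPM at T0 to 7.46 and 6.52 CPM (log2 fold change -0.58, SE 0.13, adjusted p = 0.00302 by edgeR). In BT474R it went from 16.9 and 16.1 CPM to 10.9 and 9.70 CPM (log2 fold change -0.68, SE 0.16, adjusted p = 0.0189 by edgeR). Its 1 h libraries lay below the T0 libraries in both lines. CDK12 rose in BT474 at 1 h, from 936 and 933 to 1017 and 1018 CPM (log2 fold change 0.13, SE 0.03), and fell below T0 by 0.11 at 12 h and by 0.12 at 24 h in log2 (SE 0.03 each). In BT474R it fell at 24 h, to 947 and 874 CPM from 1086 and 1068 CPM (log2 fold change -0.23, SE 0.04, adjusted p = 0.000896 by edgeR).

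PNMT fell in BT474R at 24 h, to 141 and 137 CPM from 180.8 and 178 CPM at T0 (log2 fold change -0.35, SE 0.07, adjusted p = 0.00096 by edgeR). In BT474 the PNMT log2 fold change at 24 h was -0.01 (interval -0.14 to 0.13). PSMD3, a subunit of the 19S cap of the proteasome, rose in BT474R at 1 h from 2096 and 2117 to 2358 and 2415 CPM (log2 fold change 0.18, SE 0.04). ERBB2 fell at 24 h in both lines, by 0.20 in BT474 (SE 0.02) and by 0.37 in BT474R (SE 0.05) on the log2 scale. Without replicate 1 of T0, 0 of the 4 calls in BT474 were made. Of the DEGs against T0, those of TCAP and CDK12 at 1 h, of CDK12 at 12 h and 24 h in BT474 and of PSMD3 rested on single libraries. The TCAP call in BT474 was lost without replicate 1 of T0 or replicate 2 of vehicle at 1 h, with log2 fold changes of -0.71 to -0.49 over the libraries left out. Those of TCAP and PSMD3 in BT474R and of CDK12 at 1 h in BT474 were lost without any 1 of the 4 libraries compared. Over the libraries left out their log2 fold changes ran from -0.77 to -0.59, from 0.17 to 0.19 and from 0.11 to 0.15. That of CDK12 at 24 h was lost without either T0 library or replicate 1 of vehicle (-0.17 to -0.07), and that at 12 h without any of 12 of the line's 20 libraries (-0.12 to -0.10).

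**Figure D3:**
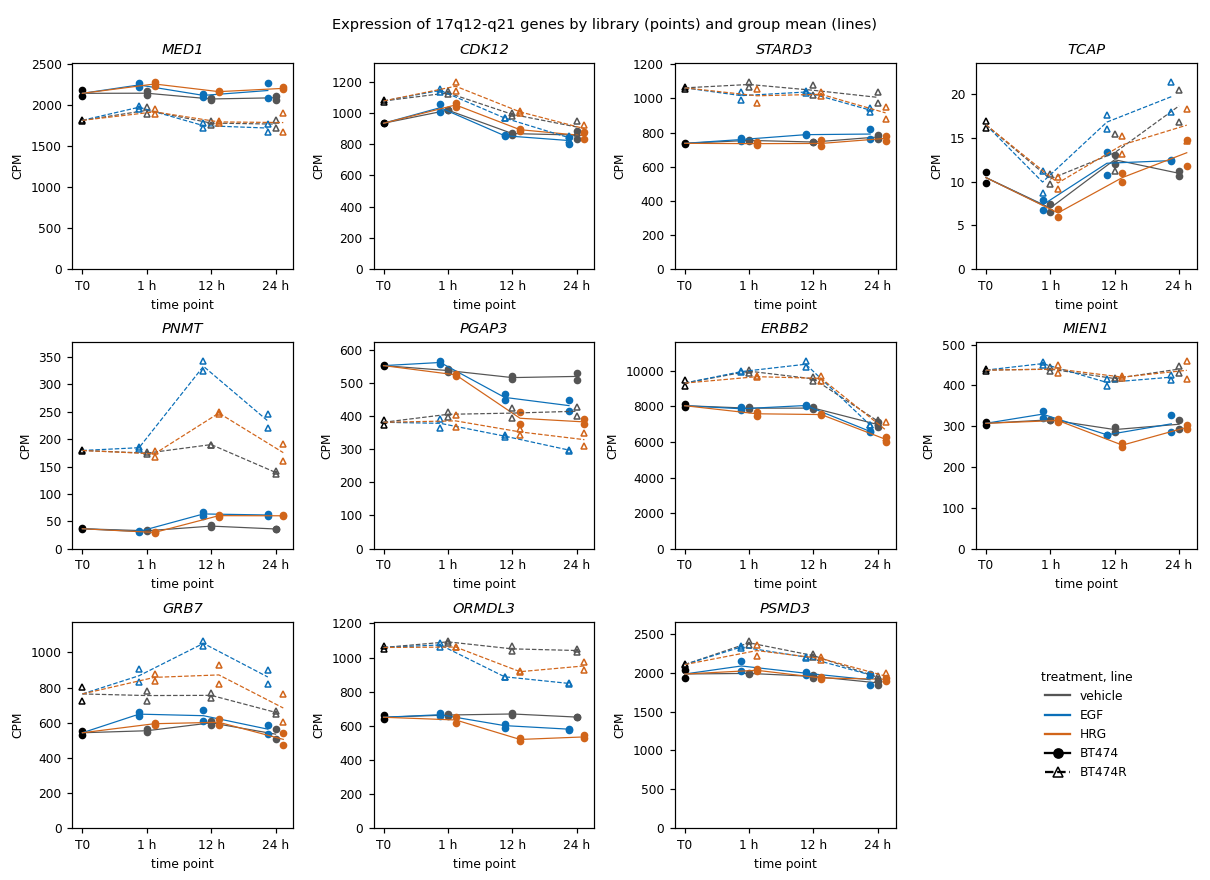
CPM of the 10 neighbours and ERBB2 in each of 40 libraries (points) and group means (lines) against time point, for vehicle, EGF and HRG, with filled circles and solid lines for BT474 and open triangles and dashed lines for BT474R. Each axis starts at 0. PNMT reached 342 CPM in EGF-BT474R at 12 h, and PGAP3 and ORMDL3 lay below vehicle under both ligands from 12 h on.

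To ask whether the neighbours respond to the ligands, EGF and HRG libraries were each set against vehicle at matched times within a line. Under both ligands and in both lines, PNMT rose and PGAP3 fell at 12 h and 24 h. ORMDL3 fell with PGAP3, except in HRG-BT474R at 24 h, and GRB7 was called higher with EGF in BT474R at 12 h and 24 h. MED1, CDK12, STARD3, TCAP and PSMD3 were not DEGs by edgeR in any of the 12 comparisons, though alternative settings of edgeR called TCAP in some. DESeq2 called CDK12 in EGF-BT474R at 24 h (log2 fold change -0.11, adjusted p = 0.0426). The comparisons of EGF and of HRG at a time share their vehicle libraries.

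In BT474, EGF made 1 of 10 neighbours a DEG at 1 h (2.19% of all genes), 3 at 12 h (16% of all genes) and 3 at 24 h (16.4% of all genes). HRG made 0 a DEG at 1 h (2.77% of all genes), 4 at 12 h (25.8% of all genes) and 3 at 24 h (24.1% of all genes). In BT474R, EGF made 0 a DEG at 1 h (0.457% of all genes), 4 at 12 h (12% of all genes) and 4 at 24 h (17.3% of all genes). HRG made 0 a DEG at 1 h (0.169% of all genes), 3 at 12 h (4.12% of all genes) and 2 at 24 h (2.78% of all genes). Where 0 were called at 1 h, 3 neighbours had an unadjusted p below 0.05 in edgeR in HRG-BT474, 1 in EGF-BT474R and 1 in HRG-BT474R, and DESeq2 called 0. In HRG-BT474 at 1 h the libraries of ligand and vehicle still did not overlap for 8 of 10 neighbours, so non-overlap alone says little. Its share over all genes was not counted for the ligand comparisons. The median log2 fold change of the 10 neighbours lay between -0.05 and 0.04 in each of the 12 comparisons.

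PNMT was the neighbour with the largest rise. In BT474 at 12 h it had 39.6 and 42.6 CPM with vehicle, 66.9 and 59.7 CPM with EGF and 61.8 and 58.6 CPM with HRG. Its log2 fold change was 0.61 with EGF (SE 0.06, adjusted p = 1.81e-09 by edgeR) and 0.52 with HRG (SE 0.06, adjusted p = 1.99e-08 by edgeR). In BT474R at 12 h it had 190.0 and 190.1 CPM with vehicle, 342 and 324 CPM with EGF and 246 and 249 CPM with HRG. There the log2 fold change was 0.81 with EGF (SE 0.06, adjusted p = 1.09e-08 by edgeR) and 0.37 with HRG (SE 0.06, adjusted p = 0.00123 by edgeR). Each ligand library lay above each vehicle library in both lines.

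At 24 h, PNMT had 35.1 and 36.6 CPM with vehicle in BT474, 59.0 and 63.8 CPM with EGF and 60.7 and 59.2 CPM with HRG, and its log2 fold changes were 0.76 and 0.72 (SE 0.06 each). In BT474R it had 141 and 137 CPM with vehicle, 221 and 245.5 CPM with EGF and 159 and 191 CPM with HRG. The rise was 0.74 in log2 with EGF (SE 0.07) and 0.35 with HRG (SE 0.07, adjusted p = 0.00535 by edgeR). This last call rests on few libraries. It was lost without replicate 1 of vehicle or replicate 2 of HRG, with log2 fold changes from 0.21 to 0.47 over the libraries left out, and in a fit of the 4 libraries compared alone (adjusted p = 0.828 by edgeR). At 1 h, the log2 fold changes of PNMT lay between -0.16 and 0.08 and none passed.

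PGAP3, a remodeller of GPI-anchored proteins, fell. In BT474 at 12 h it had 512 and 519.5 CPM with vehicle, 466 and 447 CPM with EGF and 411 and 376 CPM with HRG, and the log2 fold changes were -0.19 (SE 0.04) and -0.42 (SE 0.04). At 24 h it had 531 and 508 CPM with vehicle, 448.5 and 414 CPM with EGF and 389.8 and 375 CPM with HRG. The log2 fold changes were -0.28 (SE 0.04, adjusted p = 7.91e-07 by edgeR) and -0.46 (SE 0.04, adjusted p = 2.89e-12 by edgeR). In BT474R at 24 h it had 428 and 401 CPM with vehicle, 296 and 299 CPM with EGF and 349 and 308 CPM with HRG, with log2 fold changes of -0.48 (SE 0.06, adjusted p = 4.23e-06 by edgeR) and -0.32 (SE 0.06, adjusted p = 0.00461 by edgeR). The ligand libraries lay below the vehicle libraries at both times in both lines. At 12 h in BT474R the log2 fold changes were -0.27 with EGF and -0.23 with HRG (SE 0.06 each). The calls of PGAP3 at 12 h in BT474R were lost without replicate 1 of vehicle, that of EGF also without replicate 2 of EGF (-0.32 to -0.21) and that of HRG also without either HRG library (-0.28 to -0.17). At 24 h that of HRG was lost without replicate 1 of vehicle (-0.41 to -0.23). Both HRG calls were lost in a fit of the 4 libraries compared alone, with adjusted p = 0.0952 at 12 h and 0.828 at 24 h by edgeR.

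ORMDL3, an inhibitor of serine palmitoyltransferase in the endoplasmic reticulum, fell in the same comparisons bar 1. In BT474 at 12 h it had 677 and 660.4 CPM with vehicle, 613 and 588.5 CPM with EGF and 529.8 and 509 CPM with HRG. The log2 fold changes were -0.17 with EGF (SE 0.03, adjusted p = 0.000243 by edgeR) and -0.40 with HRG (SE 0.03, adjusted p = 5.33e-12 by edgeR). At 24 h they were -0.17 and -0.31 (SE 0.03 each). In BT474R, ORMDL3 had 1036.5 and 1065 CPM with vehicle at 12 h, 887 and 887 CPM with EGF and 914 and 919.8 CPM with HRG, and the log2 fold changes were -0.25 and -0.21 (SE 0.04 each). At 24 h in BT474R it had a log2 fold change of -0.30 with EGF (SE 0.04), and with HRG its log2 fold change was -0.12 (interval -0.19 to -0.04, adjusted p = 0.12 by edgeR), while DESeq2 called it (adjusted p = 0.00797). Libraries with ligand lay below vehicle in each of these comparisons.

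GRB7, the adaptor next to MIEN1, rose with EGF. In BT474R at 12 h it had 741 and 769.6 CPM with vehicle and 1067 and 1036 CPM with EGF, and at 24 h 667 and 650.2 CPM against 819 and 901 CPM. The log2 fold changes were 0.48 (SE 0.08, adjusted p = 0.000304 by edgeR) and 0.38 (SE 0.08, adjusted p = 0.00192 by edgeR). In BT474 it rose at 1 h, from 563 and 544 CPM with vehicle to 639 and 658 CPM with EGF (log2 fold change 0.21, SE 0.05, adjusted p = 0.0151 by edgeR). The EGF libraries lay above the vehicle libraries in these 3 comparisons. In BT474R at 1 h its log2 fold change was 0.20 (interval 0.04 to 0.36, adjusted p = 0.73 by edgeR), called in a fit of the 4 libraries alone (adjusted p = 0.022 by edgeR) and with no low-count filter (0.00349 by edgeR). The call at 1 h in BT474 was not made by DESeq2 (adjusted p = 0.219), with filterByExpr (0.0813 by edgeR) or in a fit of the 4 libraries alone (0.0731 by edgeR), and it was lost without replicate 2 of vehicle or replicate 2 of EGF (0.18 to 0.26). GRB7 was not called with HRG in either line. In BT474R at 1 h it had 838 and 877 CPM with HRG against 783 and 725.5 CPM with vehicle. At 12 h it had 818 and 925 CPM with HRG. With no low-count filter it was called at both times (0.20 and 0.22, adjusted p = 0.00848 and 0.000226 by edgeR). In HRG-BT474 at 24 h it was called lower with that setting (-0.09, adjusted p = 0.0317 by edgeR).

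MIEN1 passed once, in HRG-BT474 at 12 h, where it had 298 and 286 CPM with vehicle and 259 and 249 CPM with HRG (log2 fold change -0.23, SE 0.04, adjusted p = 4.5e-05 by edgeR). ERBB2, some of whose exon positions it shares, had a log2 fold change of -0.10 there (SE 0.02), a call lost without replicate 2 of vehicle, and of -0.20 at 24 h (SE 0.02), where that of MIEN1 was -0.06 (interval -0.14 to 0.03). MED1, CDK12, STARD3 and PSMD3 had SEs of 0.03 to 0.05. MED1 had log2 fold changes of -0.04 to 0.06 and PSMD3 of -0.06 to 0.05 over the 12 comparisons, CDK12 of -0.11 to 0.06 and STARD3 of -0.12 to 0.07. TCAP, with the fewest counts, ranged from -0.29 to 0.35 with SEs of 0.11 to 0.16. In a fit of only the libraries compared TCAP was called in HRG-BT474 (-0.28, adjusted p = 0.0145 by edgeR) and EGF-BT474R (0.36, adjusted p = 0.000862 by edgeR) at 12 h. Both replicate blocks also called it in HRG-BT474 at 12 h. At 24 h in HRG-BT474 it was called in the other direction with no low-count filter (0.29, adjusted p = 0.0428 by edgeR). The replicate block within time point also called it there (0.27, adjusted p = 0.0434 by edgeR). PPP1R1B rose with EGF in BT474R at 12 h and 24 h, with log2 fold changes of 0.57 and 0.78 (SE 0.13 each), the former without a call when replicate 1 of vehicle was left out (0.46 to 0.69). In BT474 it rose at 24 h with EGF (1.01) and with HRG (0.96, SE 0.30 each), at levels of at most 3.12 CPM. Both calls were lost without replicate 1 of vehicle or replicate 2 of the ligand, with 0.59 to 1.39 and 0.51 to 1.35 over the libraries left out.

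**Figure D4:**
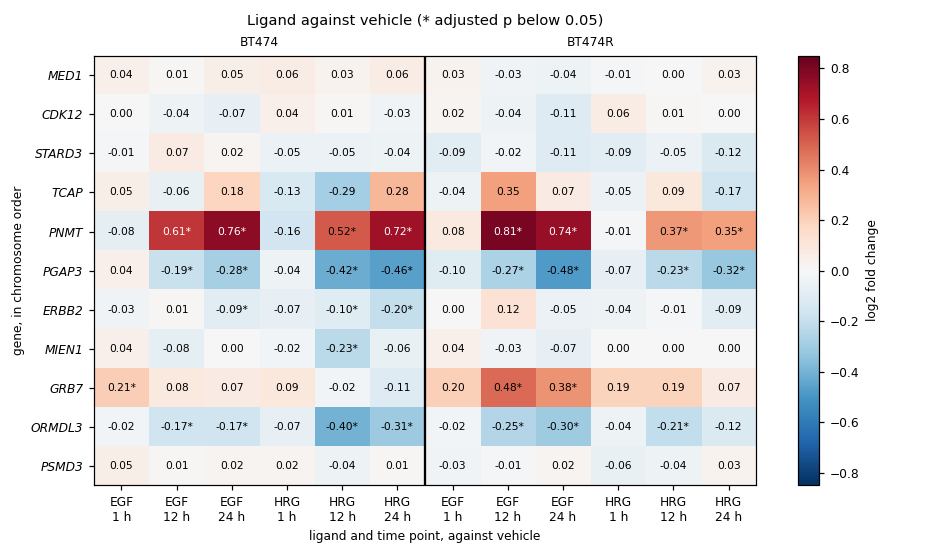
Log2 fold change of ligand against vehicle for the 10 neighbours and ERBB2, in chromosome order from top to bottom, in 12 comparisons, with an asterisk where the adjusted p was below 0.05. PNMT is positive and PGAP3 negative at 12 h and 24 h under both ligands in both lines.

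Whether a ligand acted differently in the 2 lines was tested as an interaction in the fit of all 40 libraries. For EGF, 0 of 10 neighbours passed at 1 h (0.138% of all genes), at 12 h (1.96% of all genes) and at 24 h (4.01% of all genes). With edgeR, 1, 1 and 4 neighbours had an unadjusted p below 0.05 at these times, and DESeq2 called 0. GRB7 was the nearest, with an EGF effect that was higher in BT474R by 0.38 in log2 at 12 h (SE 0.11, interval 0.17 to 0.59, adjusted p = 0.0511 by edgeR) and by 0.31 at 24 h (SE 0.11, adjusted p = 0.109 by edgeR). Its call at 12 h was made under 6 alternatives, among them DESeq2 size factors, filterByExpr and both replicate blocks, but not by DESeq2 itself. For HRG, 0 passed at 1 h (0.544% of all genes) and at 12 h (4.07% of all genes), and 1 at 24 h (3.33% of all genes). At 1 h and 12 h, 0 and 3 had an unadjusted p below 0.05 in edgeR, and DESeq2 called 0 and 2. The DEG at 24 h was PNMT, whose rise with HRG was smaller in BT474R, by a difference of -0.41 in log2 (SE 0.09, interval -0.59 to -0.22, adjusted p = 0.00767 by edgeR). It was not called in a fit of only the libraries compared (-0.40, adjusted p = 0.306 by edgeR), and DESeq2 also called ORMDL3 there (0.18, adjusted p = 0.00373). Without each library in turn the PNMT difference was called with values from -0.55 to -0.28, in fits that kept the dispersion trend of the full fit. The libraries of HRG-BT474R at 24 h differed from each other the most of all groups. Their median chi-square over genes was 2.56, beside 0.455 from counting noise, and that of vehicle-BT474R at 24 h came next with 1.58. At 12 h, the HRG effects on ORMDL3 and MIEN1 were less negative in BT474R by 0.17 (SE 0.05, adjusted p = 0.0529 by edgeR) and 0.21 (SE 0.07, adjusted p = 0.0763 by edgeR), and DESeq2 called both.

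To describe whether the neighbours moved together, Pearson's r was computed between genes on log2 CPM over the 10 group means of each line. These points share vehicle libraries, times and scaling, so r is a description without a test. In BT474 the median r of the 45 pairs of neighbours was -0.04, with 22 pairs above 0, 11 above 0.5 and 11 below -0.5. In BT474R it was 0.19, with 29 pairs above 0, 15 above 0.5 and 7 below -0.5. Such r were common over 10 points. With ERBB2, 3010 of 15066 genes had r above 0.5 and 2753 below -0.5 in BT474, and 4683 and 3924 in BT474R. Pairs of other genes were not counted. The 10 genes did not move as a unit in either line.

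Certain pairs, picked from the 45, did go together in both lines. PGAP3 and ORMDL3 had r = 0.96 in BT474 and 0.89 in BT474R, and CDK12 and PSMD3 had 0.80 and 0.86. PNMT ran against ORMDL3 (-0.81 and -0.74) and against PGAP3 (-0.89 and -0.60), although PNMT and PGAP3 are next to each other. TCAP ran against CDK12 in both lines (-0.96 and -0.88), and GRB7 ran with PNMT in BT474R (0.86) but not in BT474 (-0.06). By rank, Spearman's rho in BT474 and BT474R was 0.75 and 0.62 for PGAP3 with ORMDL3 and 0.73 and 0.79 for CDK12 with PSMD3. For PNMT it was -0.59 and -0.60 with ORMDL3, -0.76 and -0.60 with PGAP3, and 0.08 and 0.79 with GRB7. For TCAP with CDK12 it was -0.88 and -0.85. With ERBB2, the median r of the neighbours was 0.25 in BT474 (from -0.45 to 0.66) and 0.48 in BT474R (from -0.65 to 0.90), beside 0.01 and 0.08 over the 15066 genes with a mean of at least 1 CPM. PSMD3 followed ERBB2 most closely in BT474R (0.90), and PGAP3, GRB7 and PSMD3 had 0.65, 0.66 and 0.65 in BT474.

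**Figure D5:**
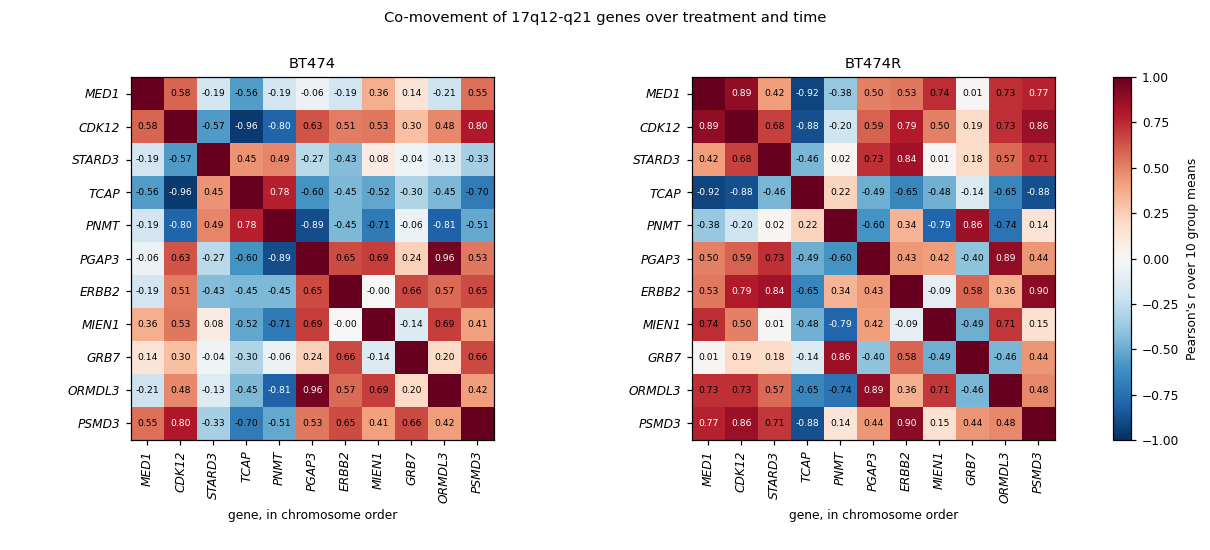
Pearson's r between the 10 neighbours and ERBB2, in chromosome order, over the 10 group means of log2 CPM in BT474 (left) and BT474R (right). Red cells mark genes that moved together and blue cells genes that moved apart. PGAP3 and ORMDL3 have 0.96 and 0.89, and PNMT and ORMDL3 -0.81 and -0.74.

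Among 14181 other genes, those whose profile over the 20 groups, each line centred on its own mean, was most like the mean of the neighbours were CRAT (r = 0.82), a second row under the name of PSME2 (0.82), MON1A (0.81), SLC35A2 (0.81) and ATOX1 (0.79). Their r in each line alone was between 0.72 and 0.89, and Spearman's rho over both lines between 0.76 and 0.83. The profiles were not scaled, so neighbours with a large spread weigh most in the mean. In BT474 the SD of log2 group means was 0.451 for PNMT and 0.384 for TCAP, but 0.0406 for MED1. Of the neighbours themselves, STARD3 (0.66), PNMT (0.63) and GRB7 (0.61) were most like the mean and MIEN1 (-0.25) least, each being part of that mean. CDK12 (-0.01), MED1 (-0.05), PGAP3 and ORMDL3 (-0.08 each) were not like it either. In BT474 and BT474R alone, r was 0.64 and 0.70 for STARD3, 0.62 and 0.67 for PNMT, and 0.26 and 0.79 for GRB7.

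The partners of the neighbours in their own complexes and pathways were counted from lists. Of 18 subunits of the 19S proteasome, PSMD3 included, 7 rose in EGF-BT474 at 24 h (16.4% of all genes were DEGs). In HRG-BT474, 7 rose at 12 h (25.8%) and 12 at 24 h (24.1%), and 0 fell in any of these comparisons. The shares count both directions, and 2441, 3332 and 3155 of all 25146 genes rose. The list medians were 0.12, 0.07 and 0.14 in log2, beside -0.02 over all genes in each. PSMD3 was not among the subunits that rose, with 0.02, -0.04 and 0.01. In BT474R, 1 and 3 of the 18 rose with EGF at 12 h and 24 h (12% and 17.3% of all genes were DEGs). With HRG 0 and 1 rose (4.12% and 2.78%), and 0 fell with either ligand. Of 30 Mediator genes, MED1 included, at most 7 were DEGs in a ligand comparison. These were 3 up and 4 down in HRG-BT474 at 12 h (25.8% of all genes), and the list medians lay between -0.03 and 0.04. Of 6 elongation kinases and cyclins, CDK12 included, at most 2 were DEGs with ligand, also in HRG-BT474 at 12 h. At T0, where 46.9% of all genes were DEGs between the lines, 10 of the 30 Mediator genes were higher and 8 lower in BT474R, and of the 18 in the 19S list 5 were higher and 2 lower.

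The list of 8 ORMDL and serine palmitoyltransferase genes and the GRB7 family held genes that changed more than the neighbours did. Those named here were chosen after their values were seen, and their log2 fold changes are given without SE or adjusted p. SPTSSB, a small subunit of serine palmitoyltransferase, rose where ORMDL3 fell, with log2 fold changes in BT474 at 12 h of 1.33 with EGF and 1.82 with HRG, and in BT474R of 1.55 and 1.02. ORMDL2 rose at 12 h in EGF-BT474 (0.22), HRG-BT474 (0.33) and EGF-BT474R (0.34), opposite to ORMDL3. GRB10 and GRB14, the relatives of GRB7, were lower in BT474R than in BT474 under vehicle at 12 h, with log2 fold changes of -1.10 and -1.72, where GRB7 was higher (0.33). GRB10 fell with EGF at 12 h in BT474 (-0.26) and in BT474R (-0.63), where GRB7 had 0.08 and 0.48.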

How the data were processed

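RNA was sequenced in 40 libraries of BT474 and BT474R. The authors trimmed reads with Trim Galore 0.6.6, aligned them to GRCh38.p13 with Rsubread, counted them per gene with featureCounts and deposited whole-number counts that were not normalized. Which annotation release was counted, whether by strand, and how multi-mapping reads were treated was not given in the sources used here. Groups came from the labels. Totals ran from 16794594 to 33387936 counts (median 24224094).

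A gene entered a fit if 50% or more of the fit's libraries held 1 count or more of it, which left 25146 in BT474, 24287 in BT474R and 24641 in both lines together to test. Counts were scaled by TMM and tested with edgeR 4.0.16 (glmQLFit and glmQLFTest, two-sided, R 4.3.3) with 1 coefficient for each group and Benjamini-Hochberg adjustment. Ligand and time comparisons used the 20 libraries of a line, and comparisons between lines used all 40. The prior count on the log2 scale was 2. Intervals are approximate, at 95%, from the SE. DESeq2 1.42.0 and other alternatives are given in the closing section. A fit without a library kept the dispersion trend of the full fit. Only the BT474 fit, for EGF against vehicle at 12 h, was tested on simulated data. The other fits and the interactions were not, and changes as small as many of those called here were not simulated.

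Positions and lengths came from GENCODE 44 on GRCh38, and 18430 of the 24641 genes had a length. Named by rule were the 10 neighbours, ERBB2 and the 5 genes most like the mean of the neighbours. Among the other listed genes of the stretch, the called genes of largest rise and of largest fall at T0 were named. SPTSSB, ORMDL2, GRB10 and GRB14 were named outside this rule, after their values were seen. The members and lists were chosen with earlier results of these data known.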

Additional observations from a re-analysis of the deposited data

Results flagged for a closer look

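The rise of PNMT with HRG at 24 h differed between the lines by the interaction test. Its log2 fold change was 0.72 (SE 0.06) in HRG-BT474 and 0.35 (SE 0.07) in HRG-BT474R, and the difference of BT474R minus BT474 was -0.41 (SE 0.09, interval -0.59 to -0.22, adjusted p = 0.00767 by edgeR). PNMT was higher with HRG in 2 of 2 libraries of each line. The difference came from the fit of both lines together and the 2 log2 fold changes from fits of each line. In a fit of only the libraries compared the difference was -0.40 (adjusted p = 0.306 by edgeR). The libraries of HRG-BT474R at 24 h differed from each other more than those of any other group.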

How the results depend on the processing

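Of 89 calls for named values, 89 were kept with DESeq2 size factors, with no low-count filter and with either replicate block, 88 with DESeq2 or filterByExpr, 83 with only the libraries compared, and 71 whichever library was left out. None of them reversed. Calls of neighbours against T0 in BT474 went from 4 to 7 with no low-count filter, with only the libraries compared and with the replicate block within time point, and from 0 to 6 over libraries left out. In BT474R they went from 4 to 8 with only the libraries compared, and from 2 to 6 over libraries left out. The 2 were without either library of T0 or of vehicle at 1 h. HRG calls in BT474R went from 5 to 3 with only the libraries compared, and ranged from 3 (without replicate 1 of vehicle at 24 h) to 8 (without replicate 1 of HRG at 24 h).

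Interaction calls for EGF went from 0 to 1 with DESeq2 size factors, filterByExpr, only the libraries compared and the replicate block, to 2 with no low-count filter and the replicate block within time point, and from 0 to 2 over libraries left out. For HRG they went from 1 to 4 with DESeq2 size factors, DESeq2, filterByExpr and only the libraries compared, to 3 with no low-count filter and either replicate block, and from 1 to 5 over libraries left out, 5 being without replicate 1 of HRG-BT474R at 24 h. The causes were not tested. ERBB2 between the lines under vehicle at 24 h (0.04) reversed to -0.01 with DESeq2 size factors, DESeq2 and filterByExpr, to -0.02 with only the libraries compared and to -0.00 with no low-count filter, and lay between -0.00 and 0.04 over libraries left out.

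Groups share replicate numbers, and deviations of same-numbered libraries correlated between -0.147 and 0.553 over genes in the 18 comparisons, from 0.122 to 0.553 for the 4 ligand comparisons at 24 h. Since not all were above 0.1, the libraries were not treated as pairs. The replicate block within time point called the EGF interaction of GRB7 at 24 h (0.30, adjusted p = 0.022 by edgeR). With 2 libraries a group and 132 counts at the lowest, TCAP had the largest SEs of the neighbours.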
